A study of Mus musculus with 18 samples.

Results

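The Notch pathway and Deltex genes described here are 10 genes of the count table: the receptors Notch1, Notch2 and Notch3, the protease Furin, the DNA-binding factor Rbpj, the targets Hes1 and Nrarp, and the Deltex ubiquitin ligases Dtx1, Dtx3 and Dtx4. They were selected by name, with the group values of these same libraries known, from the 23337 rows of the table. Of the 10 genes, 9 had a count in at least 1 library and 8 passed the low-count filter, against 11118 genes of the whole table that passed. Because the choice rests on these measurements, the fold changes of the 10 genes are given as descriptions, without p-values. Calls of these 10 genes do not allow for that choice either. A call kept under another setting of the fit, which reuses the same libraries, is likewise a description and no independent support. "Called" below means an adjusted p under 0.1 with a fold change of at least 1.5 in edgeR's quasi-likelihood test over all 11118 genes, and levels are in CPM (counts relative to the TMM-scaled library size).

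The cells were thymic iNKT cells (invariant natural killer T cells) of mice, which bind a glycolipid-loaded CD1d tetramer and divide into NKT1, NKT2 and NKT17 subsets. WT and SKG mice on the BALB/c background were compared, with 3 libraries in each of 6 genotype-by-subset groups. SKG mice carry a spontaneous point mutation in Zap70, the kinase that relays the T cell receptor (TCR) signal, and both genotypes descended from a cross of BALB/cJ with SKG mice, bred apart from the F2. The sort took NKT1 as ICOS lo CD49a+, NKT2 as CD49a- Sdc-1- ICOS hi with high CD4 and TCR beta, and NKT17 as CD49a- ICOS hi Sdc-1+. The mutation is in every cell of the SKG animals, so effects within iNKT cells and effects of their surroundings cannot be told apart. Age, sex and pooling of the mice for these libraries were not given in the sources used here. Nothing states that libraries of a group came from separate animals, so the spread between them may be technical and p-values measure only that spread.

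Notch receptors are cut by Furin on their way to the cell surface, bind Delta or Jagged ligands on a neighbouring cell, and are then cleaved by ADAM proteases and gamma-secretase. The released intracellular domain enters the nucleus, joins Rbpj and Mastermind coactivators, and turns on targets such as Hes1, Hey1, Nrarp and, in T cell progenitors, Il2ra and Dtx1. In the thymus this pathway is known for committing progenitors to the T lineage, and Nrarp and Deltex proteins act as feedback regulators of it. Furin also processes many other proteins.

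The libraries held 4391029 to 8895917 counts, and the summed levels of the subset markers followed the sort labels. Summed over 5 NKT17 markers (among them Il23r and Sdc1), the level was 2174 to 3404 CPM in NKT17 libraries and at most 12.7 CPM elsewhere. The same sum over 6 NKT1 markers was 3948 to 5607 CPM in NKT1 libraries and at most 424.1 CPM elsewhere. Over 6 NKT2 markers it was 1662 to 2451 CPM in NKT2 libraries, above the 513.5 to 1531 CPM of the others. Single NKT2 markers did not all follow. Gata3 averaged 268.0, 269.5 and 268.1 CPM in WT NKT1, NKT2 and NKT17, and was lowest in SKG NKT2 (172.5 CPM). Icos averaged 735.4 CPM in SKG NKT2 and 972.3 in SKG NKT17. The proteins of Icos, Cd4 and Sdc1 were themselves used in the sort. Of the genes of other cell types, Pax5 of B cells had no count in any library. Rag1, Rag2, Dntt and Arpp21 of immature thymocytes stayed under 0.4 CPM, but the other genes of that list did not. Cd8a reached 9.92 CPM in a WT NKT1 library. Cd8b1 averaged 6.54 CPM in WT NKT17 and 22.5 in SKG NKT17, and Cd1d1 36.8 CPM in WT NKT2 and 60.9 in SKG NKT2. The B cell list, in sum, was 7.82 to 11.1 CPM in WT NKT17, 24.8 to 40.7 CPM in SKG NKT17 and at most 5.95 CPM elsewhere, nearly all of it Cd79b, and the myeloid list was 142.1 to 317.5 CPM, nearly all of it Cst3.

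Per kilobase of exon, over all 18 libraries, Dtx3 stood highest of the 10 genes at 15.6 CPM per kb and Rbpj next at 14.7. Dtx1 averaged 7.75, Nrarp 6.42, Notch1 6.30, Notch2 5.34, Furin 3.96 and Dtx4 3.15 CPM per kb. Hes1 averaged 0.196 CPM per kb and Notch3 had no count. The order differed between groups: Rbpj stood above Dtx3 in WT NKT1 (19.3 against 15.8 CPM per kb), SKG NKT1 (18.5 against 16.5) and SKG NKT2 (12.8 against 12.2). Dtx1 ran from 0.0773 CPM per kb in WT NKT2 to 14.1 in SKG NKT1. These lengths are those of the annotation, and a shorter transcript in use would raise the value of its gene.

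Of the receptor genes, Notch1 (NCBIM37 chr2:26313423-26372183, minus strand) had 99.2, 78.9 and 62.2 CPM in WT NKT1, 93.8, 59.8 and 64.0 in WT NKT2, and 107, 96.2 and 119 in WT NKT17. In SKG mice it had 94.4, 89.6 and 78.1 CPM in NKT1, 135, 77.9 and 66.8 in NKT2, and 114, 75.4 and 103 in NKT17. When the 6 groups were ordered by mean, from 107.5 CPM in WT NKT17 to 72.5 CPM in WT NKT2, every neighbouring pair overlapped. The WT NKT17 libraries nevertheless stood above the WT NKT2 libraries, by a log2 difference of 0.57 (SE 0.24). That difference was not called in the fit as described (0.44 to 0.80 over the 12 alternatives). It was called without WT NKT2 replicate 1 and with libraries blocked by the number in their titles (the replicate block). The meaning of that title number is not stated, and it is not the replicate number used here. The WT NKT1 difference from WT NKT17 was called without WT NKT1 replicate 1 (-0.61 to -0.27). Apart from these alternatives Notch1 was not called, and its SKG-to-WT log2 difference was 0.12 (SE 0.24) in NKT1, 0.36 (SE 0.24) in NKT2 and -0.14 (SE 0.24) in NKT17. Noncoding genes annotated on the opposite strand share 1068 and 414 exon bases with Notch1, and the library kit does not mark strand, so their reads and those of Notch1 cannot be told apart.

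Notch2 (NCBIM37 chr3:97817461-97954290, plus strand) had 55.6, 73.7 and 89.7 CPM in WT NKT2, the highest group, and 57.7, 49.7 and 53.8 CPM in SKG NKT2. It had 45.3, 58.6 and 42.2 CPM in WT NKT1 and 55.6, 38.5 and 52.5 in SKG NKT1. NKT17 libraries had 37.7, 48.3 and 64.1 CPM in WT and 51.7, 67.5 and 67.6 in SKG. All neighbouring groups in the order of means overlapped for this gene too. Its 1 call in the fit as described was lower in NKT1 than in NKT2 of WT mice, with a log2 difference of -0.59 (SE 0.20), a size at the edge of the 1.5-fold limit, and 4 of 12 alternatives lost that call, among them the fits without WT NKT1 replicate 1, WT NKT1 replicate 3 or WT NKT2 replicate 3. The SKG-to-WT difference in NKT2, not called, was called with the replicate block (-0.61 to -0.27 over the 12 alternatives). NKT17 of WT mice was called lower than NKT2 under 3 of 12 alternatives, upper-quartile scaling and the fits without WT NKT2 replicate 1 or WT NKT17 replicate 3 (-0.77 to -0.37). Notch3 had a count of 0 in all 18 libraries, so its level lay below the 3 counts per library taken as the limit that a count of 0 allows; this covers counting error only.

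Rbpj, the factor that takes Notch signals to DNA, was highest in NKT1 of both genotypes (NCBIM37 chr5:53947018-54048684, plus strand). It had 126, 102 and 109 CPM in WT NKT1 and 123, 110 and 89.9 CPM in SKG NKT1. The other groups lay lower, at 77.5, 66.8 and 84.9 CPM in WT NKT2, 67.8, 81.1 and 75.0 in SKG NKT2, 75.4, 63.5 and 89.3 in WT NKT17, and 70.7, 62.6 and 59.5 in SKG NKT17. All 6 NKT1 libraries stood above all 12 others. The NKT1 excess was 0.56 (SE 0.15) on the log2 scale over NKT2 and 0.56 (SE 0.15) over NKT17 in WT, and 0.53 (SE 0.15) over NKT2 in SKG, each just under the 1.5-fold limit and so not called, although each passed it in 2 of the fits that left out a library (without WT NKT1 replicate 2 for both WT differences, WT NKT2 replicate 3 or WT NKT17 replicate 3, and SKG NKT1 replicate 3 or SKG NKT2 replicate 2). In SKG mice the excess over NKT17 was 0.75 (SE 0.15) and was called. SKG and WT libraries overlapped in every subset, with log2 differences of -0.06 (SE 0.15) in NKT1, -0.03 (SE 0.15) in NKT2 and -0.24 (SE 0.15) in NKT17.

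Furin showed the most graded pattern of the 10 genes (NCBIM37 chr7:87533471-87550322, minus strand). It had 90.3, 93.0 and 90.2 CPM in WT NKT1 and 21, 21.2 and 20.1 CPM in SKG NKT1. NKT17 libraries had 24.0, 26.1 and 47.1 CPM in WT and 62, 63.2 and 60.2 CPM in SKG. In NKT2 it was low in both genotypes, with 5.52, 5.42 and 6.79 CPM in WT and 7.71, 4.89 and 6.10 CPM in SKG. The SKG libraries thus lay below WT in NKT1, above WT in NKT17, and overlapped with WT in NKT2. In the order of group means, 4 of the 5 neighbouring pairs did not overlap, and SKG NKT2 and WT NKT2 did. The SKG-to-WT log2 difference was -2.13 (SE 0.21) in NKT1, a 4.38-fold lower level, 0.07 (SE 0.26) in NKT2 and 0.93 (SE 0.21) in NKT17, a 1.90-fold higher level. The 12 alternatives kept both calls, with ranges of -2.20 to -2.10 in NKT1 and 0.74 to 1.31 in NKT17. Between subsets, WT NKT1 exceeded WT NKT17 by 1.49 (SE 0.21) on the log2 scale, whereas SKG NKT1 was lower than SKG NKT17 by the log2 difference of -1.57 (SE 0.21).

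**Figure D1:**
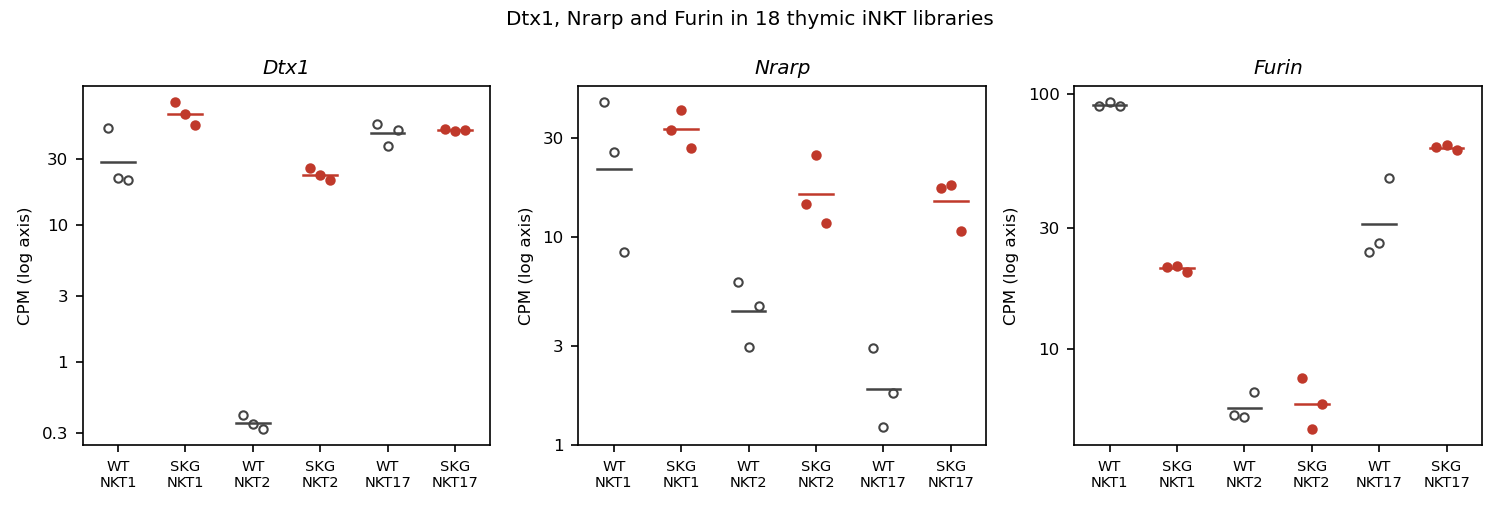
Levels of Dtx1, Nrarp and Furin in CPM on a log axis, with a separate axis range for each gene. Open grey circles are the 3 WT libraries and filled red circles the 3 SKG libraries of each subset, and lines mark the geometric mean. Dtx1 sits under 0.5 CPM in the WT NKT2 libraries and above 20 CPM in every other library, Nrarp is lowest in WT NKT17, and Furin of SKG libraries is below WT in NKT1 and above WT in NKT17.

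In bulk RNA of this kind, fewer cells expressing a gene and less RNA per cell cannot be told apart. The marker lists of the subsets themselves also differed between genotypes: the summed NKT1 list was 4808 to 5607 CPM in WT NKT1 and 3948 to 4390 CPM in SKG NKT1. The NKT2 list was 2307 to 2451 CPM in WT NKT2 and 1662 to 2039 CPM in SKG NKT2, and the NKT17 list was 3308 to 3404 CPM in WT NKT17 and 2174 to 2431 CPM in SKG NKT17. The genes of a list did not move together. In NKT17, Blk averaged 2002 CPM in WT and 827.6 in SKG, whereas Ccr6 averaged 12.1 and 592.3 CPM and Sdc1 421.5 and 415.5 CPM. In NKT2, Ccr7 averaged 262.2 CPM in WT and 413.2 in SKG, and Zbtb16 194.4 and 193.3 CPM. The part of these shifts in the differences between SKG and WT reported here was not tested.

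Of the target genes, Hes1, a transcriptional repressor, was hardly counted (NCBIM37 chr16:30064470-30067882, plus strand). It had 0 to 7 counts in a library and 40 counts in the 18 libraries together, and it did not pass the filter. WT NKT2 libraries had 6, 0 and 7 counts and SKG NKT2 libraries 4, 3 and 5 counts. WT NKT1 libraries had 3, 2 and 0 counts, SKG NKT1 0, 2 and 0, WT NKT17 0, 0 and 1, and SKG NKT17 0, 5 and 2. The SKG NKT2 libraries lay above those of SKG NKT1 and of WT NKT17 and, once scaled to library size, above those of WT NKT1, which shared the count of 3 with them. They overlapped with WT NKT2 and SKG NKT17. No difference in Hes1 was tested.

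Nrarp, a target that feeds back on the Notch complex, was higher in SKG than in WT mice in NKT2 and NKT17 (NCBIM37 chr2:25036278-25038850, plus strand). It had 6.13, 2.97 and 4.69 CPM in WT NKT2 and 14.5, 25.1 and 11.7 CPM in SKG NKT2. In NKT17 it had 2.93, 1.22 and 1.78 CPM in WT and 17.3, 18.0 and 10.7 CPM in SKG. In NKT1 the genotypes overlapped, with 44.8, 25.8 and 8.50 CPM in WT and 32.9, 41.2 and 27.0 CPM in SKG. The third WT NKT1 library was the lowest of these 6 by a wide margin.

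The SKG-to-WT log2 difference of Nrarp was 0.34 (SE 0.42) in NKT1, 1.90 (SE 0.48) in NKT2 and 2.97 (SE 0.52) in NKT17, the last a 7.81-fold higher level. The NKT1 difference ran from -0.07 without WT NKT1 replicate 3 to 1.03 with the replicate block and was called under no alternative. All 12 alternatives kept the calls in NKT2 (1.52 to 2.46) and NKT17 (2.72 to 3.54). Within WT mice, NKT1 exceeded NKT2 by 2.53 (SE 0.48) and NKT17 by 3.75 (SE 0.52) on the log2 scale. These values ran from 1.88 to 2.94 and from 3.12 to 4.17 over the alternatives, lowest without WT NKT1 replicate 1 and highest without WT NKT1 replicate 3, and stayed called. Within SKG mice the same differences were 0.98 (SE 0.43) and 1.13 (SE 0.43). The first was not called, except under 4 of 12 alternatives, among them the fit without SKG NKT2 replicate 2. The second was called, but not without SKG NKT1 replicate 1 or 2 or SKG NKT17 replicate 1 or 3. WT NKT17 and WT NKT2 stood at the bottom of the order, below every SKG group, while the 4 higher groups overlapped with their neighbours. These WT groups were barely apart, at 2.93 CPM in the highest WT NKT17 library and 2.97 CPM in the lowest WT NKT2 library. Their log2 difference, -1.22 (SE 0.56) for NKT17 against NKT2, was not called in the fit as described.

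The promoter window of Rbpj holds the core letters of the site that the Rbpj protein reads, whereas the windows of Nrarp and Dtx1, whose levels differed most between genotypes together with Furin, do not. They are shown for that contrast. The windows run from 250 bases before to 50 bases after a RefSeq start on build GRCm38.p6, a different build from the gene coordinates above. They are printed 5′ to 3′ on the gene's strand, in lower case, with matches to TGGGAA on either strand in capitals.
Rbpj promoter, chr5:53590096-53590395, plus strand: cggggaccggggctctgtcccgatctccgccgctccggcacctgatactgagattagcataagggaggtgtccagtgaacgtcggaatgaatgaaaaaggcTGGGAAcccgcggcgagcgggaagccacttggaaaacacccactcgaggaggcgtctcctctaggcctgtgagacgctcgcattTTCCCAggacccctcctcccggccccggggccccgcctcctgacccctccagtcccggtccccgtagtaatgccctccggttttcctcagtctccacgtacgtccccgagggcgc
Nrarp promoter, chr2:25180508-25180807, plus strand: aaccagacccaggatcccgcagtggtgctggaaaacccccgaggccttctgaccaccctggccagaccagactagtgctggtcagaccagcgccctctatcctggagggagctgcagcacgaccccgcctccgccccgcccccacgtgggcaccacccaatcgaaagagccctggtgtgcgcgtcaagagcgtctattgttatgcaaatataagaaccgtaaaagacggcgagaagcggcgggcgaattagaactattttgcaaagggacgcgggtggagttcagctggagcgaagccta
Dtx1 promoter, chr5:120711620-120711919, minus strand: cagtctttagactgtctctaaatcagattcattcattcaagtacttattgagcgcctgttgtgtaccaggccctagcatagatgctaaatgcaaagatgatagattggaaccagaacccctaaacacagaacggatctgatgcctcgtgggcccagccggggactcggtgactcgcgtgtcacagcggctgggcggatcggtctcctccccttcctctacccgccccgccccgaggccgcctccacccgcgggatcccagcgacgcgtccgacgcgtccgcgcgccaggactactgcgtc

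Of the 10 genes, 7 had a window in the RefSeq table and Rbpj alone had a match, with 2 in the window shown, beginning 149 and 65 bases before the start, the second on the opposite strand. TGGGAA occurred on either strand in 25.6% of all 32851 windows, and GTGGGAA, which contains it, in 6.38%, so a match is common. The longer GTGGGAA was in no window of these 7 genes, that of Rbpj included. No match says only that these letters are not in the window.

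Dtx1, a Deltex ligase gene and a known Notch target of thymocytes, was the member with the widest span (NCBIM37 chr5:121130211-121161936, minus strand). It had 0.409, 0.350 and 0.323 CPM in WT NKT2, which was 2 counts in each library, and 25.8, 22.9 and 21.2 CPM in SKG NKT2. In NKT1 it had 50.7, 21.8 and 21.1 CPM in WT and 78.4, 64.6 and 53.7 CPM in SKG. In NKT17 the genotypes overlapped, with 54.3, 37.9 and 49.5 CPM in WT and 50.4, 48.2 and 49.2 CPM in SKG. WT NKT2 was therefore the only group near 0, and SKG NKT1 was the highest.

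From the summed counts, Dtx1 was 64.6 times as abundant in SKG NKT2 as in WT NKT2 (exact 95% interval of the counts 29.4 to 177, counting error only). Against the same group, WT NKT1 was 95.4 times as high (interval 43.6 to 261) and WT NKT17 132 times as high (interval 60.5 to 361). The SKG-to-WT log2 difference was 1.06 (SE 0.25) in NKT1 and 0.06 (SE 0.25) in NKT17. The NKT1 call was lost without SKG NKT1 replicate 1 and in a fit of only the libraries compared, with a range of 0.85 to 1.62 over the 12 alternatives. Within SKG mice NKT1 exceeded NKT2 by 1.49 (SE 0.26) and NKT17 exceeded NKT2 by 1.08 (SE 0.26) on the log2 scale. WT NKT1 was lower than WT NKT17 by a log2 difference of -0.58 (SE 0.25), at the 1.5-fold limit and not called, and 6 of 12 alternatives called it, among them the fits without WT NKT1 replicate 1 and without WT NKT17 replicate 2.

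Dtx3 ran, by group mean, from 31.3 CPM in SKG NKT2 to 52.7 CPM in SKG NKT17 (NCBIM37 chr10:126627434-126632784, minus strand). It had 46.6, 33.4 and 42.2 CPM in WT NKT1, 39.0, 41.0 and 47.0 in SKG NKT1, 32.9, 30.4 and 42.5 in WT NKT2, and 28.4, 27.2 and 38.4 in SKG NKT2. NKT17 libraries had 34.2, 37.4 and 42.4 CPM in WT and 51.4, 49.5 and 57.1 CPM in SKG. The SKG NKT17 libraries stood above all 15 others, by 0.47 (SE 0.18) on the log2 scale over WT NKT17, which was not called, and by 0.75 (SE 0.18) over SKG NKT2, which was called.

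By group mean, Dtx4 was lowest in NKT1 of both genotypes (NCBIM37 chr19:12540831-12576486, minus strand). It had 8.45, 10.5 and 15.9 CPM in WT NKT1 and 9.48, 8.75 and 14.7 CPM in SKG NKT1. It had 12.3, 15.9 and 17.5 CPM in WT NKT2, 20.3, 21.7 and 30.8 in SKG NKT2, 16.6, 24.7 and 34.4 in WT NKT17, and 19.7, 19.5 and 25.1 in SKG NKT17. Each NKT17 library exceeded each NKT1 library of its own genotype, with NKT1-to-NKT17 log2 differences of -1.13 (SE 0.30) in WT and -0.96 (SE 0.31) in SKG, both called, the second lost without SKG NKT1 replicate 2. SKG NKT1 was also called lower than SKG NKT2, by -1.14 (SE 0.31). In WT mice the NKT1 and NKT2 libraries overlapped, with a difference of -0.40 (SE 0.31) that was not called. SKG NKT2 libraries lay above WT NKT2 libraries by 0.67 (SE 0.30), which was not called. The WT difference of NKT17 over NKT2, 0.73 (SE 0.30), was called although the libraries overlapped, and 7 of 12 alternatives lost it, among them the fits without any of the WT NKT2 libraries and without WT NKT17 replicate 2 or 3.

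**Figure D2:**
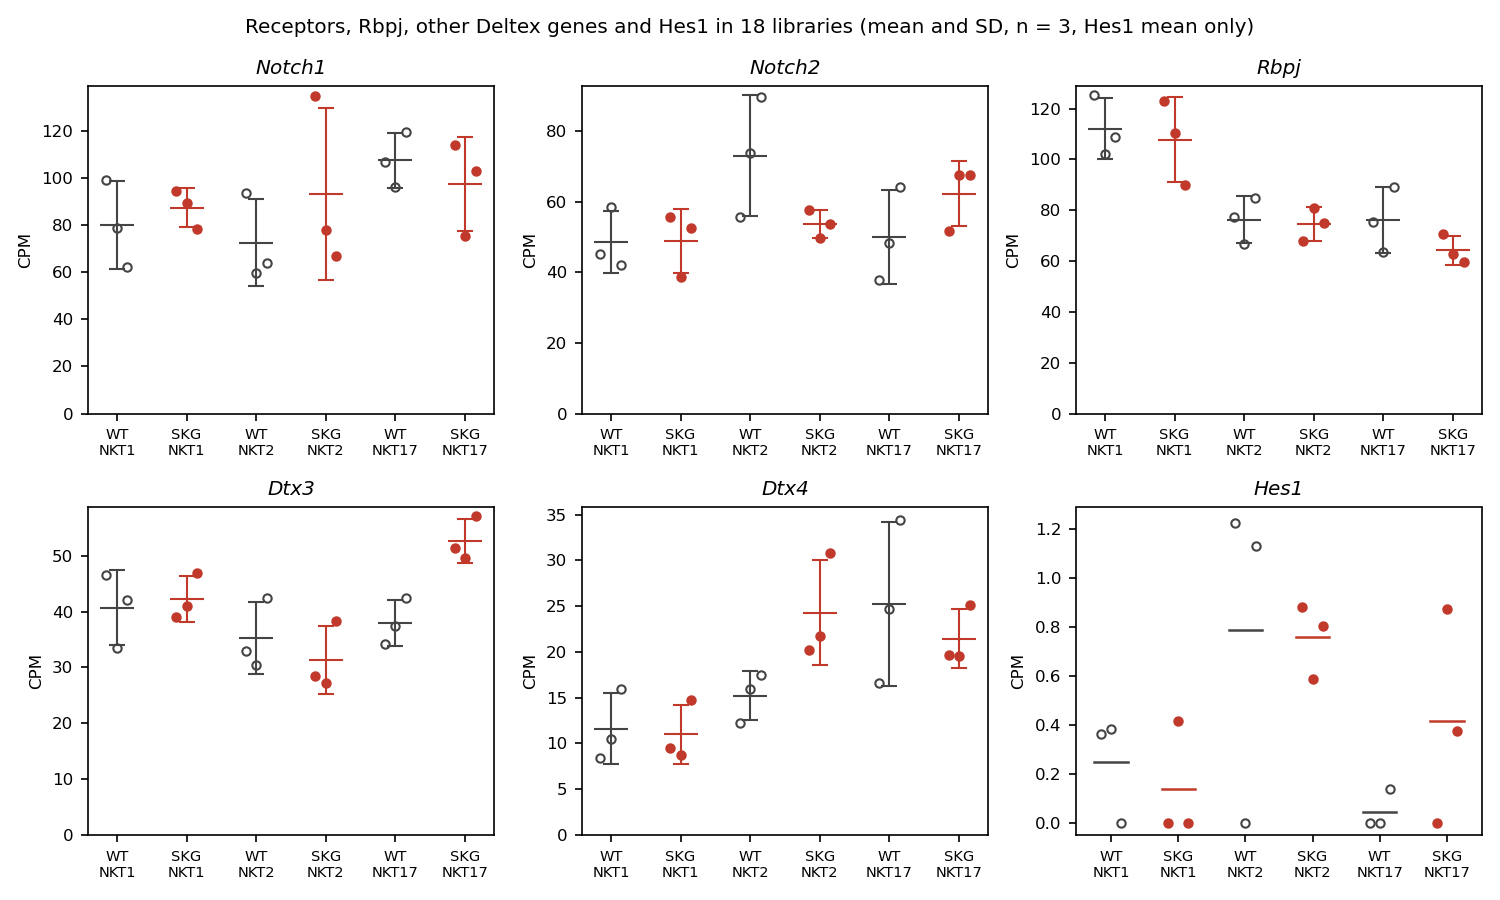
Levels of Notch1, Notch2, Rbpj, Dtx3, Dtx4 and Hes1 in CPM on linear axes from 0. Open grey circles are WT and filled red circles SKG libraries, with the mean and SD of 3 libraries per group (the mean alone for Hes1). Neighbouring groups of Notch1 and of Notch2 in the order of means overlap, Rbpj is highest in NKT1, the mean of Dtx4 is lowest in NKT1, and Hes1 stays under 1.3 CPM.

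Counted over the 8 tested members, SKG against WT gave 2 calls in NKT1 (Dtx1 higher, Furin lower), where 3.27% of all tested genes were called. SKG NKT2 against WT NKT2 gave 2 (Dtx1 and Nrarp higher), where 7.95% of all genes were called, and 2 in NKT17 (Nrarp and Furin higher), where the share was 8.37%. Within WT mice, NKT1 against NKT2 gave 4 calls (Dtx1, Nrarp and Furin higher, Notch2 lower; 27.5% of all genes) and NKT1 against NKT17 gave 3 (Nrarp and Furin higher, Dtx4 lower; 24.7%). NKT17 against NKT2 in WT gave 3 (Dtx1, Dtx4 and Furin higher; 20.0%). With the replicate block, a fit of all 18 libraries that blocks by title number across both genotypes, this last count was 5, adding Notch1 and Nrarp. Nothing about the members as a set is read from these counts, since the members were picked with the values known.

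Within SKG mice, NKT1 against NKT2 gave 3 member calls (Dtx1 and Furin higher, Dtx4 lower), where 18.7% of all genes were called. NKT1 against NKT17 in SKG gave 4 (Nrarp and Rbpj higher, Dtx4 and Furin lower), with 22.8% of all genes called. NKT17 against NKT2 in SKG gave 3 (Dtx1, Dtx3 and Furin higher), with 18.8% of all genes called. Comparisons that share a group share its libraries, so these counts are not independent of each other.

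The SKG effect itself was compared between subsets as a difference of log2 differences. NKT2 minus NKT1 was 4.88 (SE 0.54) for Dtx1 and 2.20 (SE 0.33) for Furin, the 2 members called, with 3.87% of all genes called. NKT17 minus NKT1 was 2.62 (SE 0.67) for Nrarp and 3.06 (SE 0.30) for Furin, again 2 members called, with 4.17% of all genes called. NKT17 minus NKT2 was -5.88 (SE 0.53) for Dtx1, the 1 member called, with 2.19% of all genes called. Leaving out WT NKT17 replicate 3 added Furin to that last comparison. The values of Dtx1 rest on the 6 counts of the WT NKT2 libraries and depend on how the model treats such low counts.

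**Figure D3:**
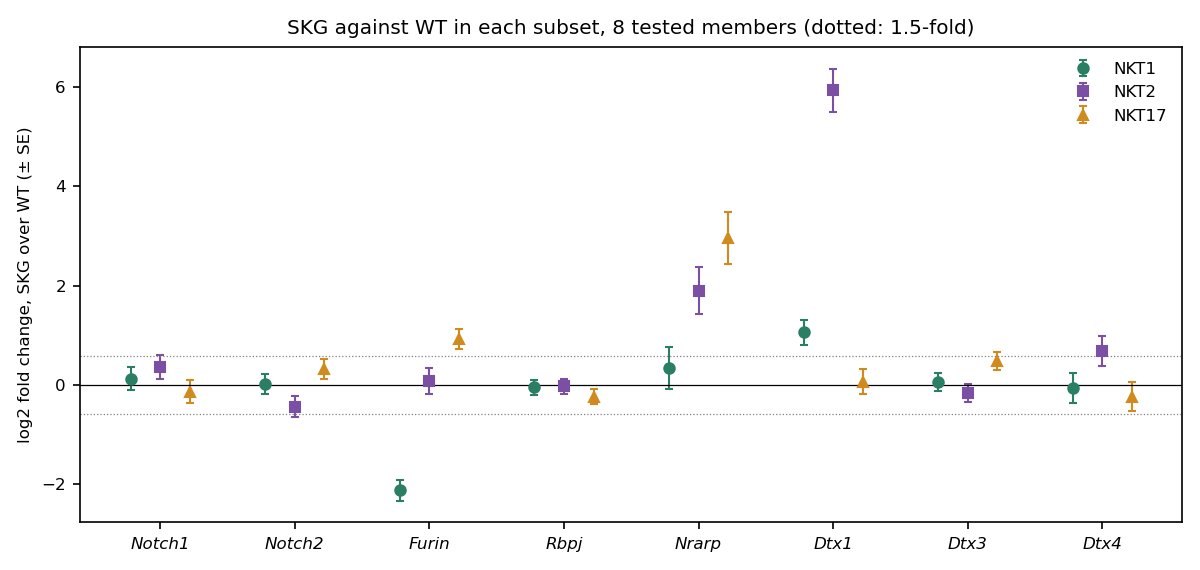
SKG-to-WT log2 fold change with its standard error for the 8 tested members in NKT1 (circles), NKT2 (squares) and NKT17 (triangles), from 3 libraries per group; dotted lines mark 1.5-fold. Dtx1 in NKT2 (5.94), Nrarp in NKT17 (2.97) and Furin in NKT1 (-2.13) lie farthest from 0, and the points of Notch1, Notch2 and Rbpj stay within the dotted lines.

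Of 57 other genes of the pathway, 47 passed the filter and could be tested. In SKG against WT, 4 of the 47 were called in NKT1 (0 higher, 4 lower), 5 in NKT2 (2 higher, 3 lower) and 6 in NKT17 (2 higher, 4 lower). These are 8.51%, 10.6% and 12.8% of the list, where 3.27%, 7.95% and 8.37% of all tested genes were called. This list, too, was chosen with earlier results of these data known. The shares and adjusted p-values of its genes, here and below, do not allow for that choice, and nothing about the list as a set is read from them. The median log2 difference of the list was -0.07, 0.03 and 0.02 in the 3 subsets, beside -0.01, 0.00 and 0.01 for all tested genes. In NKT1, where Hey1 and Tle1 had at most 3 counts in each SKG library, the list's median was the same with these genes at their ratio of counts.

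Among the ligands, Jag1 was lower in SKG than in WT mice in every subset. It had 27.8, 19.3 and 18.2 CPM in WT NKT1 and 5.02, 11.5 and 3.29 CPM in SKG NKT1, a log2 difference of -1.75 (SE 0.38, adjusted p = 0.0175). In NKT2 it had 36.2, 23.9 and 12.4 CPM in WT and 0.440, 0.392 and 0.803 CPM in SKG, a difference of -5.36 (SE 0.55, adjusted p = 3.52e-06). In NKT17 it had 151, 127 and 150 CPM in WT and 50.7, 72.4 and 57.6 CPM in SKG, a difference of -1.24 (SE 0.33, adjusted p = 0.0222). The NKT1 call was lost without SKG NKT1 replicate 1 (adjusted p = 1.28e-04 to 0.105 over the 12 alternatives) and the NKT17 call without SKG NKT17 replicate 1 (adjusted p = 1.17e-04 to 0.108). The size of the NKT2 difference rests on the low SKG NKT2 levels, and it ran from -5.79 to -4.96. The summed list of 6 thymic epithelium markers was 9.04 to 18.0 CPM in WT NKT17 and 3.49 to 7.88 CPM in SKG NKT17, mostly Epcam. In NKT2 the list was 3.67 to 6.95 CPM in WT and 3.37 to 7.05 CPM in SKG. In NKT1 it was 5.73 to 9.74 CPM in WT and 4.58 to 5.76 CPM in SKG. Foxn1 was at 0 in all libraries and Krt5 at 0 in all but 1. A link of these levels with Jag1 was not tested. Dll3 and Dll4 had no count in any library, and Dll1 did not pass the filter.

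Hey1, a repressor related to Hes1, was concentrated in WT NKT2. It had 104, 30.6 and 47.4 CPM in WT NKT2 against 1.10, 3.13 and 1.12 CPM in SKG NKT2, a log2 difference of -5.08 (SE 0.67, adjusted p = 5.17e-05). NKT17 libraries had 9.96, 3.30 and 10.0 CPM in WT and 1.56, 2.79 and 1.31 CPM in SKG, a difference of -2.03 (SE 0.65, adjusted p = 0.0587) that 5 of 12 alternatives lost, among them those without WT NKT17 replicate 1 or 3 and without SKG NKT17 replicate 1 or 3. WT NKT1 libraries had 8, 6 and 0 counts of Hey1 and SKG NKT1 libraries 3, 0 and 0. In WT NKT2, then, Hey1 was at its highest and Dtx1 at its lowest of the 6 groups.

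Il2ra, the interleukin-2 receptor alpha chain and a described Notch target of early thymocytes, moved in opposite directions in NKT1 and NKT2. It had 0.818, 0.175 and 2.42 CPM in WT NKT2 and 21.6, 17.0 and 38.2 CPM in SKG NKT2, a log2 difference of 4.42 (SE 0.43, adjusted p = 1.10e-06). The WT NKT2 libraries held 4, 1 and 15 counts, and the difference ran from 3.91 without WT NKT2 replicate 2 to 5.71 without WT NKT2 replicate 3. In NKT1 it had 25.7, 31.9 and 25.3 CPM in WT and 13.2, 7.71 and 13.7 CPM in SKG, a difference of -1.25 (SE 0.32, adjusted p = 0.0367), lost without WT NKT1 replicate 2, SKG NKT1 replicate 1 or SKG NKT1 replicate 2. In NKT17 the difference was 0.64 (SE 0.28, adjusted p = 0.191). The summed list of 7 immature thymocyte markers was 34.8 to 42.3 CPM in WT NKT2 and 58.1 to 74.0 CPM in SKG NKT2, and 27.5 to 37.2 CPM in WT NKT17 and 51.5 to 83.3 CPM in SKG NKT17. Rag1 and Arpp21 of that list were at 0 in all 6 SKG libraries of these subsets, and Rag2 and Dntt were at or near 0. Most of the sum was Cd1d1 in SKG NKT2 (60.9 CPM on average), and Cd1d1 and Cd8b1 in SKG NKT17 (36.2 and 22.5 CPM).

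Of the genes of receptor cleavage, endocytosis and ubiquitination, Neurl3, Nedd4 and Psen2 were called in SKG against WT. Neurl3, a Neuralized-type ubiquitin ligase gene, had 187, 150 and 185 CPM in WT NKT1 and 82.3, 78.9 and 102 CPM in SKG NKT1. Its log2 difference there was -0.99 (SE 0.25, adjusted p = 0.036). In NKT17 it had 0.586, 0.348 and 1.65 CPM in WT and 13.9, 9.77 and 15.6 CPM in SKG, a difference of 3.79 (SE 0.41, adjusted p = 2.08e-06). The size of the NKT17 difference rests on the low WT NKT17 levels, and it ran from 3.43 to 4.77 over the 12 alternatives. The direction of Neurl3 in these subsets was that of Furin. The NKT1 call was lost without WT NKT1 replicate 1, SKG NKT1 replicate 1 or SKG NKT1 replicate 2. Nedd4, a HECT-type ubiquitin ligase gene, had 15.5, 15.2 and 14.1 CPM in WT NKT2 and 42.7, 76.5 and 58.5 CPM in SKG NKT2, a difference of 1.99 (SE 0.36, adjusted p = 0.00201). NKT17 libraries had 8.00, 7.65 and 23.9 CPM in WT and 38.2, 48.3 and 40.9 CPM in SKG, a difference of 1.65 (SE 0.36, adjusted p = 0.00816). The gamma-secretase gene Psen2 had 200, 271 and 229 CPM in WT NKT17 and 133, 110 and 125 CPM in SKG NKT17, a difference of -0.93 (SE 0.13, adjusted p = 4.67e-05).

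Of 8 coactivator genes, Maml3, a Mastermind gene, was the only one called in SKG against WT. Its log2 difference was -2.59 (SE 0.65, adjusted p = 0.0298) in NKT1, -1.57 (SE 0.54, adjusted p = 0.0819) in NKT2 and -1.81 (SE 0.55, adjusted p = 0.0416) in NKT17. It was a low-count gene, with 0.186 to 4.39 CPM in NKT1 libraries. The calls were lost under 3, 5 and 4 of the 12 alternatives (adjusted p 0.0055 to 0.194, 0.0339 to 0.274 and 0.0117 to 0.190). Libraries whose removal lost a call were SKG NKT1 replicates 1 and 3, replicates 2 and 3 of WT NKT2 and of SKG NKT2, WT NKT17 replicates 1 and 3, and SKG NKT17 replicate 1. None of the 9 corepressor genes, the 5 receptor glycosylation genes or Notch4 was called in SKG against WT.

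**Figure D4:**
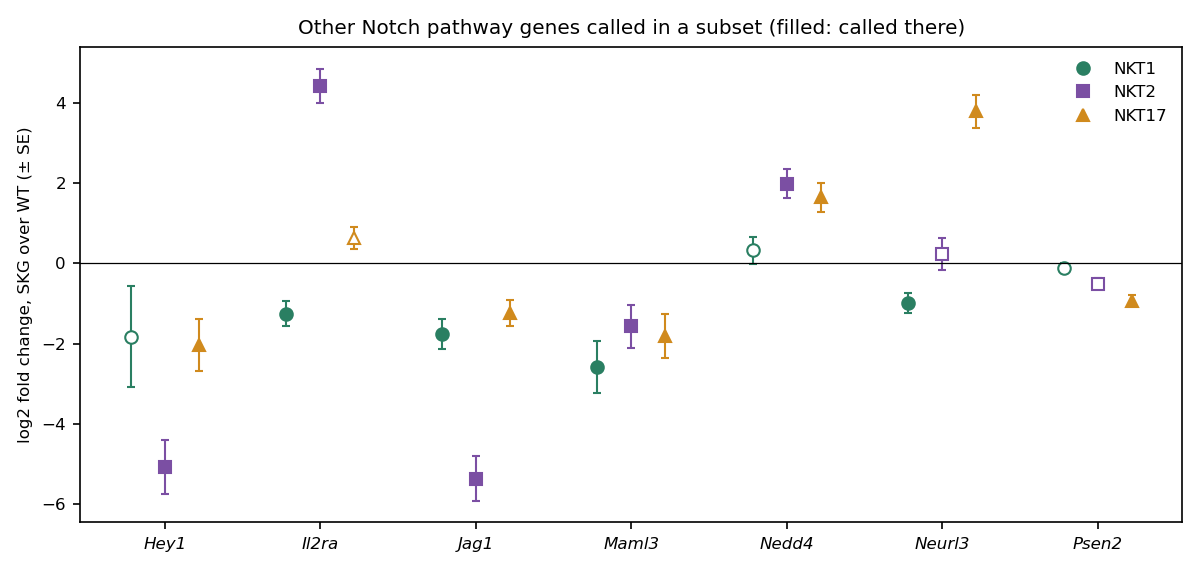
SKG-to-WT log2 fold change with its standard error for the 7 other Notch pathway genes called in at least 1 subset, in NKT1 (circles), NKT2 (squares) and NKT17 (triangles); filled symbols were called in that subset. Jag1 and Maml3 are below 0 in all 3 subsets, Nedd4 is called above 0 in NKT2 and NKT17, and Il2ra and Neurl3 are called on both sides of 0.

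Between WT subsets the shares of the pathway list that were called, 23.4%, 25.5% and 23.4%, lay near those of all genes. NKT1 against NKT2 gave 11 calls of 47 (6 higher, 5 lower), NKT1 against NKT17 gave 12 (6 higher, 6 lower) and NKT17 against NKT2 gave 11 (6 higher, 5 lower), where 27.5%, 24.7% and 20.0% of all genes were called. The list's median log2 differences were 0.11, -0.11 and 0.02, beside 0.00, -0.01 and 0.01 for all tested genes.

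Neurl3 and Nedd4 were higher in WT NKT1 than in both other WT subsets. Neurl3 exceeded its NKT2 level by 5.97 (SE 0.34, adjusted p = 1.62e-11) and its NKT17 level by 7.53 (SE 0.39, adjusted p = 2.22e-12) on the log2 scale, and Nedd4 by 2.77 (SE 0.37, adjusted p = 2.13e-05) and 2.91 (SE 0.37, adjusted p = 1.14e-05). The Neurl3 difference from NKT17 rests on the low WT NKT17 levels given above. Lfng, a Fringe glycosyltransferase that modifies Notch, was higher than in NKT2 by 1.08 (SE 0.17, adjusted p = 2.74e-05), and Aph1a, a gamma-secretase subunit gene, by 0.73 (SE 0.20, adjusted p = 0.00707), under the 1.5-fold limit without WT NKT2 replicate 1. Tcf7, which encodes the factor TCF1, was lower in NKT1 than in NKT2 by -2.47 (SE 0.16, adjusted p = 6.64e-11) and than in NKT17 by -1.98 (SE 0.16, adjusted p = 1.35e-09). Hdac1, a histone deacetylase gene, was lower in NKT1 than in NKT2 by -0.65 (SE 0.12, adjusted p = 1.46e-04). Hey1 was lower in NKT1 than in NKT2 by -6.35 (SE 0.73, adjusted p = 1.66e-06) and than in NKT17 by -3.39 (SE 0.73, adjusted p = 0.00146).

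Jag1 was highest in WT NKT17, with NKT1 lower by -2.70 (SE 0.35, adjusted p = 6.79e-06) and NKT17 above NKT2 by 2.57 (SE 0.35, adjusted p = 1.84e-05). Il2ra was highest in the same group, with 27.6 CPM on average in WT NKT1, 95.8 in WT NKT17 and 1.14 in WT NKT2. Its log2 differences were 4.52 (SE 0.43, adjusted p = 1.10e-07) for NKT1 over NKT2, -1.80 (SE 0.29, adjusted p = 8.99e-05) for NKT1 against NKT17 and 6.32 (SE 0.42, adjusted p = 1.04e-09) for NKT17 over NKT2. The differences from NKT2 rest on the low Il2ra counts given above, and ran from 4.00 to 5.79 for NKT1 and from 5.79 to 7.59 for NKT17, lowest without WT NKT2 replicate 2 and highest without WT NKT2 replicate 3. Psen2 and Adam17, genes of proteases that cut Notch, were higher in NKT17 than in NKT2 by 1.09 (SE 0.13, adjusted p = 1.29e-06) and 0.68 (SE 0.12, adjusted p = 1.94e-04). Maml2, a Mastermind gene, was lower in NKT17 than in NKT2 by -1.53 (SE 0.29, adjusted p = 3.74e-04), and NKT1 exceeded NKT17 by 1.96 (SE 0.29, adjusted p = 1.31e-05). Hdac1 and Hey1 were lower in NKT17 than in NKT2 by -0.61 (SE 0.12, adjusted p = 4.02e-04) and -2.96 (SE 0.57, adjusted p = 7.00e-04), the first under the 1.5-fold limit without WT NKT2 replicate 2 or WT NKT17 replicate 3. Myc, a growth factor-responsive transcription factor gene and Notch target, was lower in NKT17 than in NKT1 (1.58, SE 0.14, adjusted p = 5.00e-09 for NKT1 over NKT17) and than in NKT2 (-1.27, SE 0.14, adjusted p = 2.71e-07).

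The genes whose level followed each member most closely over the 18 libraries were listed by Pearson's r of log2 CPM, as a description over libraries that share 6 groups. Furin was closest to Pim2, a serine/threonine kinase gene (r = 0.97), and Irak2, a kinase gene of interleukin-1 receptor signalling (r = 0.949). Like Furin, Pim2 averaged 451.7 CPM in WT NKT1 and 169.1 in SKG NKT1, and 228.5 in WT NKT17 and 366.1 in SKG NKT17. Nrarp was closest to Arl4c, a small GTPase gene (r = 0.924), and Dusp6, an ERK phosphatase gene (r = 0.914), which averaged 4.13 CPM in WT NKT17 and 21.4 CPM in SKG NKT17. Dtx1 was closest to Camk1d, a calmodulin-dependent kinase gene (r = 0.937), and Dap (r = 0.933), which averaged 60.5 CPM in WT NKT2 and 155.0 CPM in SKG NKT2. Rbpj was closest to Mgat1, an N-glycan transferase gene (r = 0.908), and Xrn2, a nuclear exonuclease gene (r = 0.901).

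The closest genes of the other members had lower r. Dtx3 was closest to AI504432 (r = 0.881) and Tle2, a Groucho-type corepressor gene (r = 0.852). Dtx4 was closest to Fntb, a farnesyltransferase subunit gene (r = 0.881), and Tulp4 (r = 0.856). Notch1 was closest to Numa1 (r = 0.791) and Zmym2 (r = 0.775), and Notch2 to Xylb (r = 0.768) and Nagk (r = 0.762), the last pair being sugar kinase genes.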

How the data were processed

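Counts were deposited by the authors as whole reads per gene symbol, not normalised. According to the methods, full-length poly-A cDNA was tagmented with Tn5 and sequenced as single-end reads, reads of tRNA, rRNA, adapters, spike-ins and low complexity were discarded, and TopHat 1.4.1 and htseq-count (union mode) were run. The submitters' processing notes name Bowtie 1.0.0, HTSeq 0.7.1 and mm10, whereas the methods name mm9 and another HTSeq release. The annotation and strand setting were not given in the sources used here. Without molecular identifiers, PCR duplicates cannot be separated.

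Here, 18 columns were joined to samples by title, and 2 columns of no listed sample were not used. Genes passing filterByExpr (count minimum 10) were scaled by TMM and fitted with edgeR 4.0.16 (robust quasi-likelihood, 6 groups, residual df 12, common BCV 21.1%), with Benjamini-Hochberg adjustment over 11118 genes in each of 12 comparisons and the study's limits (adjusted p under 0.1, 1.5-fold). The pipeline was tested on simulated counts. Replicates differed beyond sampling noise and were kept apart. Alternatives were DESeq2 1.42.0, RLE and upper-quartile scaling, no low-count filter, only the libraries compared, a block by title number, and each of 18 libraries left out. Libraries of WT NKT2 and WT NKT17 with the same title number deviated together (r = 0.351, 0.239 and 0.219). Same-number pairs between SKG subsets were all above 0 too, such as 0.0917, 0.214 and 0.0939 for NKT2 with NKT17. WT NKT1 replicate 2 was at -0.0612 with its WT NKT2 pair and -0.00718 with its WT NKT17 pair. Between genotypes, WT NKT2 and SKG NKT2 pairs were at 0.03 and -0.151. The fit as described did not pair libraries. Positions and exon lengths are from GENCODE M1 on NCBIM37 (mm9).

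The 10 members and the gene lists were chosen with earlier results of these data known. Other pathway genes were named when called in SKG against WT or between WT subsets (at most 8 per comparison, by adjusted p), and for each tested member the 2 genes with the highest r. Some genes of the marker lists are not reported here and were left out of the summed levels.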

Additional observations from a re-analysis of the deposited data

Results flagged for a closer look

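The SKG effect on other Notch pathway genes differed between subsets by the interaction test in 13 cases, given as differences of log2 fold changes with edgeR's quasi-likelihood adjusted p over all genes. These p-values do not allow for the choice of the list, which was made with earlier results of these data known. In NKT2 minus NKT1 the difference was 5.67 for Il2ra (SE 0.54, adjusted p = 2.99e-06), -3.60 for Jag1 (SE 0.73, adjusted p = 0.00841), 1.66 for Nedd4 (SE 0.49, adjusted p = 0.0936), -0.61 for Myc (SE 0.19, adjusted p = 0.0964) and 4.87 for Tle1 (SE 1.38, adjusted p = 0.0631). In NKT17 minus NKT1 it was 4.78 for Neurl3 (SE 0.48, adjusted p = 6.01e-06), 1.89 for Il2ra (SE 0.42, adjusted p = 0.0186), -0.81 for Psen2 (SE 0.19, adjusted p = 0.0174) and 4.36 for Tle1 (SE 1.32, adjusted p = 0.0814). In NKT17 minus NKT2 it was -3.79 for Il2ra (SE 0.53, adjusted p = 0.00055), 4.12 for Jag1 (SE 0.68, adjusted p = 0.00296), 3.56 for Neurl3 (SE 0.60, adjusted p = 0.00208) and 0.95 for Tle3 (SE 0.26, adjusted p = 0.077). The values of Jag1 that use NKT2 rest on its low SKG NKT2 levels, and those of Neurl3 that use NKT17 on its low WT NKT17 levels. Each fit that left out a library called fewer pathway genes in NKT2 minus NKT1.

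Tle1, a Groucho-type corepressor gene, had 0, 0 and 1 counts in the SKG NKT1 libraries, so its fitted values depend on how low counts are treated. From summed counts it was 15.8 times as abundant in WT NKT1 as in SKG NKT1 (exact 95% interval 2.51 to 657, counting error only). Myc had 266, 232 and 254 CPM in WT NKT1 and 373, 407 and 334 CPM in SKG NKT1, and its genotype difference there, 0.57 (SE 0.13, adjusted p = 0.02), was under the 1.5-fold limit.

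Among the members, every SKG library was below every WT library for Furin in NKT1 and above every WT library in NKT17, a difference of SKG effects of 3.06 (SE 0.30). This difference was called in the fit over all genes, but Furin was chosen with these values known, so it is given as a description with no p.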

How the results depend on the processing

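Of 24 counts of calls (members and pathway list in 12 comparisons), most stayed within 1.5 times under each alternative. Without 1 library at a time, pathway genes called in SKG against WT ranged from 0 to 4 in NKT1, with 0 when SKG NKT1 replicate 1 was left out, and from 3 to 8 in NKT17, with 3 when SKG NKT17 replicate 1 was left out. Pathway genes whose SKG effect differed between NKT2 and NKT1 ranged from 2 to 4, fewer in each of these fits than the 5 of the fit with all libraries. Member calls ranged from 1 to 2 for SKG against WT in NKT1, 3 to 5 for NKT1 against NKT17 in WT, 3 to 5 for NKT1 against NKT2 in SKG, 2 to 4 for NKT1 against NKT17 in SKG, and 1 to 2 for the SKG effect in NKT17 minus NKT2. A fit of only the libraries compared gave 1 member call for SKG against WT in NKT1, and called 207 genes in all there instead of 364. The replicate block by title number gave 5 member calls for NKT17 against NKT2 in WT instead of 3, and moved no other of these counts by more than 1.5 times. No fold change of a named gene reversed a call. Upper-quartile scaling moved the median of all genes by -0.102 in NKT1 against NKT2 in WT, where the share of calls that were higher became 40.9% instead of 50%. The causes were not tested. Hes1, Dtx1 in WT NKT2 and Tle1 in SKG NKT1 are limited by depth. Other low levels, such as Jag1 in SKG NKT2, Neurl3 in WT NKT17, Il2ra in WT NKT2 and Hey1 in NKT1, are limited in the same way.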
